A study of Mus musculus with 56 samples.

Results

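Very long genes of the liver were followed through treatment with locked nucleic acid (LNA) gapmers. The genes form a fixed list of 43 whose annotated span, first to last base with introns included, is about 200 kb or more in the mouse. In the GRCm38.p6 annotation all 43 spanned at least 200 kb, from 205.8 kb for Zfand3 to 1612 kb for Fhit with a median of 410.5 kb. The rule uses span and no measured value, but the genes were listed with earlier results of these data known. Of the 43 genes, 41 had a probe set on the arrays annotated to 1 gene, and Immp2l and Ptk2 are not analysed here. A gene was used where its mean intensity in the vehicle mice was 32 or more, which held for 31 of the 8814 genes above that limit on the single-dose arrays and for 40 of 13120 on the 2-week arrays. On the single-dose arrays Wwox, Magi1, Auts2, Smyd3, Mad1l1, Thada, Arhgap10, Prkca, Exoc6b and Bbx lay under 32 and were left out, and on the 2-week arrays Arhgap10 alone did. Nearest to the limit were Tbc1d5 at 36.8 inside it and Prkca at 26.5 outside it after a single dose, and Auts2 at 51.0 inside and Arhgap10 at 24.0 outside at 2 weeks.

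RNA polymerase must copy every intron before a transcript is finished, so a very long gene takes far longer to transcribe than a typical one, and its precursor RNA is mostly intron. Several of the longest genes, such as Fhit and Wwox, lie over common fragile sites, stretches that break when DNA replication is slowed. An LNA gapmer is a short antisense oligonucleotide whose modified ends flank a DNA stretch, and RNase H, an enzyme present in the nucleus as well as the cytoplasm, cuts the RNA strand paired with that stretch. Which RNAs these gapmers were made against is not stated in the labels.

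The livers came from male CD-1 mice, 6 to 8 weeks old when dosing began, 1 array per mouse. Every dosed mouse received 25 mg/kg under the skin of NTS-1 (called non-toxic by the labels), TS-2 (toxic) or HTS-3 (severely toxic), and vehicle mice received Dulbecco's phosphate buffered saline in the same volume, 10 mL/kg. After 1 dose, livers were taken at 8, 16 and 72 h from vehicle (3 mice per time), from NTS-1 (3, 4 and 3) and from TS-2 (4, 3 and 4), and at 8 and 16 h from HTS-3 (3 and 4), since the HTS-3 mice due at 72 h were dead or moribund before then. In the 2-week study, doses fell on days 1, 4, 8 and 11 and livers were taken on day 14 from 10 vehicle, 4 NTS-1 and 5 TS-2 mice, and HTS-3 was not given. The single-dose livers were the 3 or 4 of 10 per group with the highest score for hepatic hypertrophy, so these groups stand for the most affected mice. Separate mice were used in every group, and a p value measures the spread between mice of this 1 study.

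Intensities were compared within the single-dose set and within the 2-week set only. On the single-dose arrays 44.1% to 47.3% of probe sets held the floor value of 4.56, whereas lowest values on the 2-week arrays were 6.10 to 6.92. All 8 hepatocyte markers were measured in every group, and at 16 h their mean log2 level was 14.84 to 14.94 in the HTS-3 mice and 14.63 to 14.84 in the vehicle mice. The log2 ratio of the 3′ to the 5′ probe sets of Actb, a measure of RNA integrity, ran from 1.15 to 1.77 in the HTS-3 mice at 16 h and from 1.20 to 1.61 in the vehicle mice, so the groups overlapped. The third HTS-3 mouse at 8 h is labelled 8 h in its title and 16 h in its description, and it was kept at 8 h.

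Before treatment the list was neither bright nor dim. Its median vehicle intensity was 590 against 616 over all genes above 32 on the single-dose arrays, and 230 against 163 at 2 weeks. Single-dose vehicle means ran from Tbc1d5 at the limit to Dpyd, the first enzyme of pyrimidine breakdown, at 13600.

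Promoter windows of the list were set beside those of all protein-coding genes, whether or not expressed in liver. Genes matched for expression or span were not compared. The windows run from 250 bases before to 50 after a RefSeq start (GRCm38.p6), and the most upstream was taken for a gene with several. A window was found for 30 of the list's genes and for 17491 protein-coding genes. The pair CG is rare in most of the genome and dense at CpG-island promoters. It occurred at a median of 24.5 per window in the list (2 to 43) and 13 over all genes (0 to 65). The letters GGGCGG, a GC box, on either strand, stood in 17 of the 30 windows (56.7%) and in 46.3% of all windows. TATAAA, on either strand, stood in 0 of the 30 and in 13.3% of all. Among the genes used after a single dose, the 17 windows of genes that fell after HTS-3 at 16 h held a median of 35 CG pairs. The 7 windows of the others held 12. The ranges nearly coincided, at 2 to 43 and 3 to 42. GGGCGG stood in 52.9% of the 17 windows and 57.1% of the 7. These counts are descriptions of the windows, and matched letters do not show a bound factor. 3 windows are printed in the direction of transcription with every CG in capitals, because they belong to genes that followed 3 different courses: Vti1a fell under both toxic gapmers, Ube2e2 fell under HTS-3 and rose under TS-2, and Fhit fell under TS-2 and did not pass the test under HTS-3. The Vti1a window lies at chr19:55315807-55316106 on the plus strand and holds 36 CG pairs and no GGGCGG. The Ube2e2 window lies at chr14:18893722-18894021 on the minus strand and holds 39 CG pairs. The Fhit window lies at chr14:11161986-11162285 on the minus strand and holds 12 CG pairs. GGGCGG, on either strand, is present in the windows of Ube2e2 and Fhit.
Vti1a: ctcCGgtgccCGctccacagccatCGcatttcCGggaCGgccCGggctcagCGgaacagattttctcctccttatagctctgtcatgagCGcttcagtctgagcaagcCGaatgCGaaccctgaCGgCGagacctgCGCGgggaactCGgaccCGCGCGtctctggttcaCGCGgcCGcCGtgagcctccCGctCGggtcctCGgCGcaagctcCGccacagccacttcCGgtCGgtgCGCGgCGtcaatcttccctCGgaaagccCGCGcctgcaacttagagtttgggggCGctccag
Ube2e2: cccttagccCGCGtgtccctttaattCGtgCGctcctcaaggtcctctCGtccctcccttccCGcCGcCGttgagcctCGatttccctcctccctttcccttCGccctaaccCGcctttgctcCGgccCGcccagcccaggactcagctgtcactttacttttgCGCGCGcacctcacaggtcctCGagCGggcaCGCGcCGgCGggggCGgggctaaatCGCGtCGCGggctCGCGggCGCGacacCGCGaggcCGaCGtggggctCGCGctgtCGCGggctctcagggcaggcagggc
Fhit: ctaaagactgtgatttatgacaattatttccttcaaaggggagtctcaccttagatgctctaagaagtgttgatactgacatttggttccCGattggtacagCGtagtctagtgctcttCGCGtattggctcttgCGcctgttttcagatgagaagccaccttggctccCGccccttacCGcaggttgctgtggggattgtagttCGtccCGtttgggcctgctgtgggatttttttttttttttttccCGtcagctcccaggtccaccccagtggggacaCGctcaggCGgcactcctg

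HTS-3 at 16 h lowered most of the very long genes. Of the 31 used, 21 fell and none rose in the limma fit, at a Benjamini-Hochberg adjusted p under 0.05 over all genes. Over all genes above 32, 7.67% were called lower. The median log2 change of the list was -1.17, against 0.07 over all genes, and 30 of the 31 changes were negative. In 21 genes the highest HTS-3 mouse was below the lowest vehicle mouse, which held for 10.2% of all genes. The 4 HTS-3 mice had list medians of -1.28, -1.77, -0.83 and -1.49 against the vehicle mean, and the 3 vehicle mice -0.27, 0.19 and 0.14, and no HTS-3 mouse reached the vehicle range. In these bulk samples, fewer cells of a type and less RNA per cell cannot be told apart. When a gene's probe sets were averaged, 19 genes stayed above 32 and 13 of them fell: of the 21, 10 dropped under 32 and the other 11 kept their call. The count was 2 (Vti1a and Zfand3) when only the 7 arrays of the compared groups were fitted, while without any 1 mouse it was 18 to 22.

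**Figure D1:**
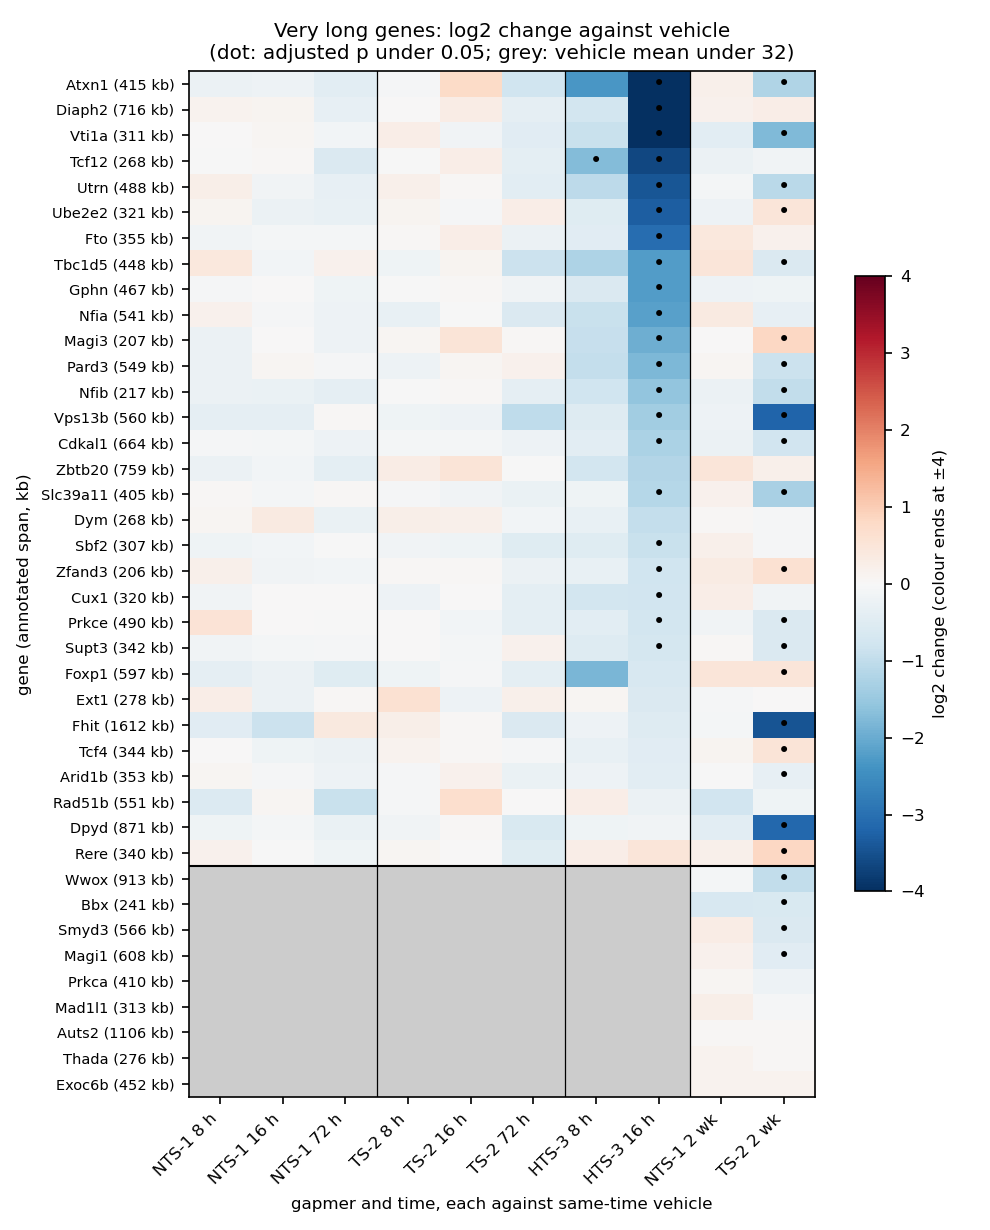
Log2 change of each very long gene (rows, with annotated span in kb) for each gapmer and time against same-time vehicle (columns), blue lower and red higher, with a dot where the adjusted p was under 0.05 and grey where the vehicle mean was under 32. Dots fill most of the HTS-3 16 h column, with 21 of 31 genes lower, and 24 of 40 in the TS-2 2-week column, and 1 gene (Tcf12) has a dot at HTS-3 8 h.

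Junction, scaffold and cytoskeleton genes all fell, 5 of the 5 used, with a median log2 change of -2.22. Diaph2, a formin that nucleates actin filaments, had intensities of 390, 810 and 696 in the vehicle mice and 13.0, 21.5, 121 and 21.9 after HTS-3. The groups were far apart and 3 of the 4 HTS-3 values were dim, that is under 32, so the fall was at least 13.5-fold (log2 change -4.36 ± 0.47 SE, limma adjusted p = 2.84e-07, n = 4 against 3). Utrn encodes utrophin, the dystrophin relative that ties actin to the cell membrane. Its intensity was 180, 272 and 288 in vehicle and 15.1, 15.5, 52.9 and 20.9 after HTS-3, at least 6.66-fold lower (limma adjusted p = 8.50e-07). Gphn encodes gephyrin, an anchor of inhibitory synapses that in liver carries out the last steps of molybdenum cofactor synthesis. It went from 915, 1454 and 1173 to 224, 164, 539 and 193, a log2 change of -2.22 ± 0.33. Its other probe sets read -2.86 and -0.22, so they disagreed on the size. Magi3, a scaffold of cell junctions, fell from 580, 686 and 745 to 194, 103, 375 and 121. Pard3, a polarity protein of tight junctions, fell from 360, 514 and 473 to 137, 104, 282 and 66.0. The third HTS-3 mouse was the highest of the 4 for each of these 5 genes, and still below all vehicle mice.

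Membrane traffic genes fell in 4 of 5, with a median of -1.38. Vti1a, a SNARE protein that fuses vesicles at the trans-Golgi network and endosomes, was among the most uniform. It stood at 239, 226 and 228 in vehicle and at 15.2, 12.2, 19.1 and 11.0 after HTS-3. All 4 HTS-3 values were dim, and the fall was at least 7.22-fold (log2 change -4.04 ± 0.25 SE, limma adjusted p = 1.19e-11). Vps13b, a lipid transfer protein of the Golgi, fell less and unevenly, from 455, 720 and 562 to 342, 101, 379 and 175 (log2 change -1.38 ± 0.32). Tbc1d5, a Rab GTPase-activating protein that acts with retromer, is near the limit. It had 29.1, 68.3 and 38.4 in vehicle and 7.5, 12.4, 15.1 and 4.56 after HTS-3, where the last value is the floor. The fall of Tbc1d5 was at least 1.37-fold (limma adjusted p = 0.00748, and 0.0569 without vehicle mouse 2). Sbf2, a myotubularin relative that activates a Rab, fell by 0.89 ± 0.21 on the log2 scale, with an adjusted p of 0.0561 without vehicle mouse 3, and its second probe set, at 124 in vehicle, read -0.06. Dym, a Golgi organiser, was the member that missed the test, at -0.95 ± 0.34 (limma adjusted p = 0.0914).

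Transcription factors and chromatin genes divided more evenly, with 6 of 11 lower and a median of -0.78. Atxn1, whose protein binds transcriptional repressors, read 261, 381 and 363 in vehicle and 4.56, 10.1, 66.3 and 10.3 after HTS-3, at least 8.61-fold lower (log2 change -4.63 ± 0.63 SE, limma adjusted p = 8.98e-06). A second Atxn1 probe set read -4.07. Tcf12, an E protein that pairs with tissue-specific helix-loop-helix factors, read 331, 449 and 351 in vehicle and 21.9, 20.4, 78.5 and 22.1 after HTS-3, at least 9.33-fold lower (limma adjusted p = 2.81e-09). A second Tcf12 probe set, dimmer in vehicle at 60.9, read -0.43, which left the widest gap between probe sets of 1 gene in the list, 3.22. The nuclear factor I genes, which regulate liver and lung differentiation, fell too: Nfia from 1393, 2415 and 2801 to 437, 232, 1003 and 484, and Nfib from 842, 1380 and 1217 to 370, 271, 512 and 399. Cux1, a homeodomain repressor, and Supt3, a subunit of the SAGA coactivator, fell by 0.78 ± 0.23 and 0.70 ± 0.19 on the log2 scale. Cux1 lost the call without any of 6 of the 7 mice, with adjusted p values of 0.0545 to 0.142, and Supt3 without vehicle mouse 1 (0.169), HTS-3 mouse 1 (0.0581) or HTS-3 mouse 4 (0.0635).

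The 5 transcription genes that did not pass were Zbtb20, the repressor of fetal genes in hepatocytes (-1.17 ± 0.41, limma adjusted p = 0.0846), Foxp1 (-0.65 ± 0.61), Tcf4 (-0.46 ± 0.25), Arid1b (-0.43 ± 0.22) and Rere. Rere, a nuclear receptor corepressor, had the one positive change of the list, 0.48 ± 0.51, and its HTS-3 values of 139, 122, 78.8 and 353 ran on both sides of the vehicle values of 103, 107 and 107. The probe sets of Tcf4 disagreed in sign, from -0.83 to 0.14. All Zbtb20 probe sets above 32 were negative: the chosen one, at -1.17, was the least changed, and the others read -1.42 to -2.17.

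Among enzymes and transporters 3 of 6 fell, with a median of -0.86. Fto, an RNA demethylase, fell from 349, 540 and 513 to 42.0, 30.2, 179 and 41.4, at least 8.17-fold (log2 change -3.05 ± 0.39 SE, limma adjusted p = 3.17e-06). Cdkal1, which modifies a tRNA, fell from 49.1, 72.1 and 55.1 to 27.9, 16.8, 41.4 and 16.8. Slc39a11, a zinc transporter, fell from 1135, 1281 and 1192 to 655, 403, 424 and 802. Fhit, the longest gene of the list and a dinucleoside polyphosphate hydrolase, did not pass: it stood at 1228 to 2203 in vehicle and 843 to 1373 after HTS-3, overlapping groups (-0.52 ± 0.42, limma adjusted p = 0.673). Dpyd, with a span of 870.8 kb, read -0.14 ± 0.19. Ext1, a heparan sulfate polymerase, read -0.58 ± 0.20 (limma adjusted p = 0.0826).

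In the remaining groups, Ube2e2, a ubiquitin-conjugating enzyme, fell from 1881, 1565 and 1452 to 204, 132, 329 and 83.5, and all of these values lay well above 32. The fall was 9.85-fold (log2 change -3.30 ± 0.27 SE, limma adjusted p = 2.75e-09) with the groups far apart. Zfand3, a zinc finger protein, went from 6118, 5655 and 6118 to 3191, 3640, 3338 and 3528, a log2 change of -0.80 ± 0.21. The chosen Zfand3 probe set is of a kind that can bind related transcripts, and its 3 other probe sets above 32 read -0.56 to -0.77. Prkce, protein kinase C epsilon, fell by 0.72 ± 0.21 on the log2 scale, but its call ended without any of 5 of the 7 mice (vehicle mice 1, 2 and 3, HTS-3 mice 3 and 4; adjusted p values of 0.0532 to 0.149). Zfand3's adjusted p was 0.0519 without vehicle mouse 1. For some genes the same reading recurred in mice of several single-dose groups, such as 6118 for Zfand3 and 211 for Prkce. The effect of such repeats on the SE was not tested. Rad51b, a recombination gene, was too variable to read, at 1225, 195 and 1262 in vehicle and 1764, 642, 1421 and 62.6 after HTS-3 (-0.25 ± 1.13).

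Markers of other cell types moved in the same HTS-3 mice. Of 6 sinusoidal endothelial markers above 32, 3 fell and 1 rose, with a median of -0.61, and of 7 Kupffer cell and macrophage markers 3 fell, with a median of -0.86, while 0 of 8 hepatocyte markers passed the test, with a median of 0.02. The summed endothelial intensity was 5918 to 9023 in HTS-3 and 8274 to 9897 in vehicle. The summed macrophage intensity was 12393 to 19638 in HTS-3 and 21237 to 45790 in vehicle. Vehicle mice had lower macrophage sums at the other times, 14845 to 17735 at 8 h and 11766 to 16992 at 72 h. At 16 h, 4 of the 7 macrophage markers fell in HTS-3 against NTS-1 and 0 against TS-2. The part of these cell types in the falls of the very long genes was not tested. Vehicle mouse 1 at 16 h carried the highest neutrophil markers, summed at 26918 where the lowest vehicle mouse had 220, and without it 19 genes of the list were lower.

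**Figure D2:**
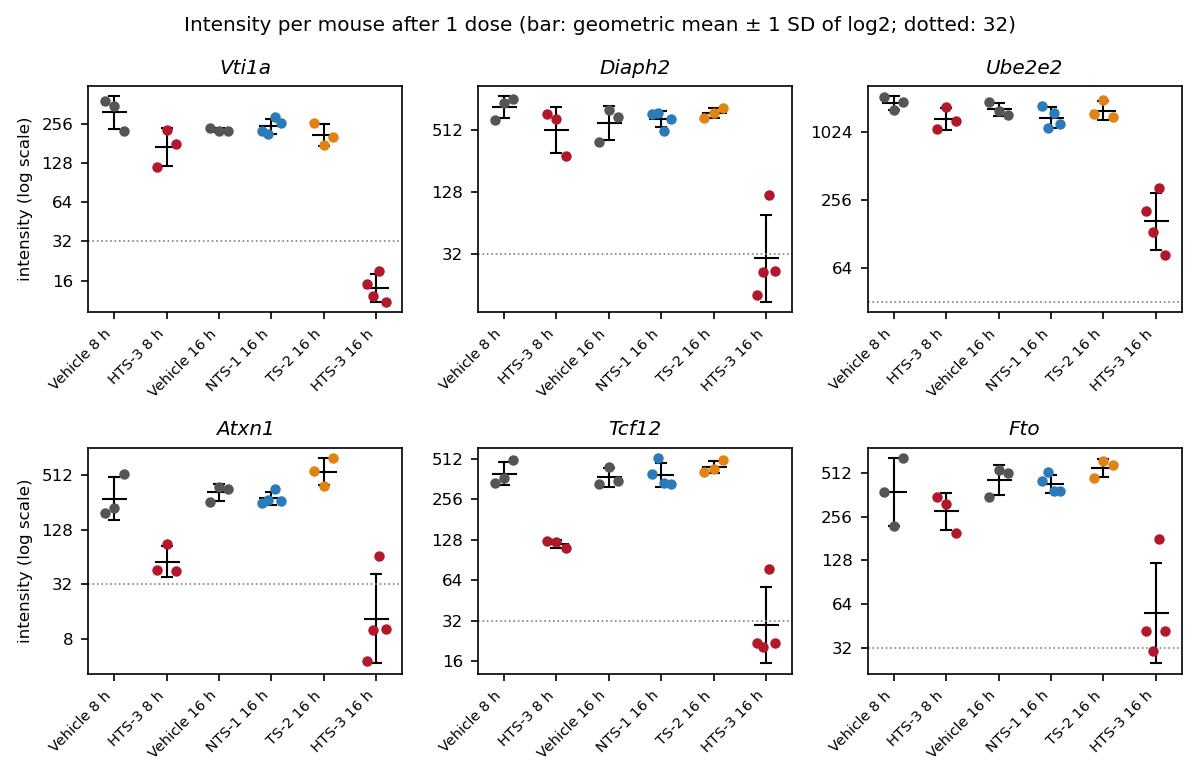
Intensity in each mouse (points, log scale) for 6 very long genes in vehicle, NTS-1, TS-2 and HTS-3 groups after 1 dose, with the geometric mean ± 1 SD of log2 as bars and 32 as a dotted line. In all 6 the HTS-3 16 h mice lie below the vehicle, NTS-1 and TS-2 mice of that time, and for Vti1a they read 11.0 to 19.1 against 226 to 239 in vehicle.

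No fall passed the test after the other gapmers at 16 h. After NTS-1 and TS-2, 0 genes of the list passed the limma test against vehicle, with 0 of 31 at an unadjusted p under 0.05 for each, and the list medians were -0.09 and 0.04. Over all genes 0.227% and 0.0113% were called in either direction. The lowest NTS-1 changes were Fhit at -0.86, Vps13b at -0.36, Nfib at -0.28, and Foxp1 and Ube2e2 at -0.25, and the highest were Dym at 0.36, Diaph2 at 0.12 and Vti1a at 0.09. TS-2 ran from -0.19 for Vps13b and Ext1, -0.16 for Sbf2, -0.14 for Slc39a11 and -0.13 for Vti1a to Magi3 at 0.53, Rad51b at 0.67 and Atxn1 at 0.76. All 3 treatments were compared with the same vehicle mice, so the gapmers were also set against one another at the matched dose and time.

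HTS-3 against NTS-1 at 16 h lowered 22 of the 31 and raised none, where 8.50% of all genes were lower, with a list median of -1.07. HTS-3 against TS-2 lowered 21 (7.52% of all genes), with a median of -1.18. The 22 were the 21 genes that fell against vehicle with Dym added (-1.31 ± 0.31, limma adjusted p = 0.00562). Dym read 1007 to 1212 in the NTS-1 mice, above all 4 HTS-3 mice, of which the lowest read 306. Against TS-2, Dym (-1.16) and Zbtb20 (-1.67) passed and Supt3 and Prkce did not. The Dym call against TS-2 ended without any of 6 of the 7 mice (each TS-2 mouse and HTS-3 mice 1, 2 and 4; adjusted p values of 0.0861 to 0.137), as did that of Cux1, and those of Vps13b and Sbf2 ended without any of 5. Against NTS-1, Supt3 lost its call without any of 6 of the 8 mice and Vps13b without any of 5. Zbtb20 stood at 1119, 1246 and 1149 after TS-2 and at 333, 231, 618 and 388 after HTS-3. Vti1a differed by -4.13 ± 0.23 from NTS-1 and by -3.91 ± 0.25 from TS-2, and Ube2e2 by -3.05 ± 0.25 and -3.27 ± 0.27. TS-2 against NTS-1 gave 0 calls among the 31 at 8, 16 and 72 h, where 0.635%, 0.408% and 0.227% of all genes were called. At an unadjusted p under 0.05 these held 1, 1 and 4 genes of the list, and the largest differences were within -1.07 and 0.97. The fits of the 16 h pairs on their own groups alone called 7 (HTS-3 against NTS-1) and 2 (HTS-3 against TS-2) of the list. With probe sets averaged 12 of 19 genes were called in each, and all 12 of the genes called before that were still above 32 kept their call.

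At 8 h after HTS-3, 1 gene of the 31 passed the test. This was Tcf12, at 342, 372 and 501 in vehicle and 125, 123 and 111 after HTS-3 (log2 change -1.74 ± 0.33 SE, 3.34-fold, limma adjusted p = 0.00912), where 0.556% of all genes were called lower. The list median was -0.52 against 0.01 over all genes, with 28 of 31 changes negative and 13 genes lower at an unadjusted p under 0.05. In 11 of the 31 (Pard3, Magi3, Zbtb20, Foxp1, Tcf12, Cdkal1, Cux1, Nfib, Utrn, Atxn1 and Sbf2) the groups did not overlap and HTS-3 was lower, against 6.02% of all genes. Atxn1 read 195, 220 and 528 in vehicle and 45.4, 88.9 and 44.5 after HTS-3 (-2.33 ± 0.68, limma adjusted p = 0.136). Foxp1, a forkhead repressor, read 189, 294 and 292 against 187, 145 and 13.6, a change of -1.82 ± 0.65 that was -0.62 without the third mouse. Next were Tbc1d5 at -1.22 and Utrn at -1.04, and the highest were Rad51b and Rere at 0.26 and Ext1 at 0.09.

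The third HTS-3 mouse, with the conflicting time in its labels, had a list median of -0.90, and the other HTS-3 mice at 8 h had -0.44 and -0.28. Vehicle mice at 8 h had -0.19, -0.05 and 0.21. Tcf12 kept its call without the third mouse at 8 h, at 1 gene called, and lost it when that mouse was moved to 16 h and the 8 h group held 2. It also lost it when the compared groups were fitted alone. With probe sets averaged it lay under 32 and was not used. Without HTS-3 mouse 2, 4 genes were lower. Against NTS-1 at 8 h, 2 genes were lower (Tcf12 at -1.72 and Prkce at -0.97; 0.681% of all genes), and against TS-2 also 2 (Tcf12 at -1.72 and Vti1a at -1.14; 0.431%). Prkce read 363, 367 and 330 after NTS-1 and 130, 211 and 211 after HTS-3, with vehicle between at 211, 271 and 245. The count was 1 to 3 against NTS-1 and 1 to 4 against TS-2 when single mice were left out. The Prkce call ended without any NTS-1 mouse or HTS-3 mouse 1 (adjusted p values of 0.0634 to 0.0965), and the Vti1a call without TS-2 mouse 1, 2 or 4 or HTS-3 mouse 1 or 3 (0.0582 to 0.196).

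The change from 8 to 16 h was tested directly, as the HTS-3 effect at 16 h minus that at 8 h, over different mice throughout. It was past the test for 6 genes of the list, all lower at 16 h, where 2.09% of all genes were. The differences were -3.63 ± 0.69 for Diaph2, -3.16 ± 0.37 for Vti1a, -2.83 ± 0.40 for Ube2e2, -2.61 ± 0.57 for Fto, -2.38 ± 0.59 for Utrn and -1.91 ± 0.45 for Tcf12. At 8 h Ube2e2 still read 1090, 1695 and 1277, against 1589 to 2093 in vehicle, and Diaph2 729, 658 and 285 against 644 to 1025. Fto read 349, 312 and 199 at 8 h, where the last value, from the mouse with the conflicting time, lay below the vehicle range of 220 to 650. The Utrn and Tcf12 calls ended without any of 10 and 8 of the 13 mice (adjusted p values of 0.0517 to 0.114 and 0.0560 to 0.0775), and the Fto call without vehicle mouse 2 of 8 h (0.0637). Without that mouse the count was 3, without 1 other mouse it reached 9, and it was 0 when the mouse with the conflicting time was moved to 16 h. The median difference over the list was -0.78, against 0.05 over all genes.

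After 8 h of NTS-1 or TS-2, 0 genes of the list passed (limma; 1 gene each at an unadjusted p under 0.05, Prkce and Ext1, both higher), where 0.658% and 0.00% of all genes did. The NTS-1 changes ran from Rad51b at -0.56, Fhit at -0.46, Foxp1 and Vps13b at -0.36 and Pard3 at -0.25 to Prkce at 0.55, Tbc1d5 at 0.41 and Ext1 at 0.28. The TS-2 changes ran from Nfia at -0.31, Pard3 and Cux1 at -0.19, Tbc1d5 at -0.18 and Foxp1 at -0.17 to Ext1 at 0.62, Zbtb20 at 0.29 and Vti1a at 0.26. The list medians of -0.05 and -0.01 lay within the spread of the vehicle mice.

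At 72 h no gene of the list passed the test after TS-2, although most changes were negative. The median was -0.37, against 0.02 over all genes, with 25 of 31 below 0. In the limma fit 3 genes (Dpyd, Vps13b and Sbf2) had an unadjusted p under 0.05, and 0.204% of all genes passed the adjusted test. Vps13b, at 545, 475 and 646 in vehicle, read 309, 200, 445 and 202 after TS-2 (-1.01 ± 0.32, limma adjusted p = 0.634), without overlap. Dpyd read 13083, 16267 and 14412 in vehicle and 7558, 10744, 14786 and 6950 after TS-2 (-0.60 ± 0.19), where the third mouse lay in the vehicle range. Groups were apart, with TS-2 lower, for 3 genes (Vps13b, Nfib and Cdkal1), against 1.58% of all genes. Cdkal1 read 51.4 in each of the 4 TS-2 mice, a value also read in other groups, and 56.5 to 63.0 in vehicle. Tbc1d5 at -0.86, Atxn1 at -0.79, and Nfia and Fhit, each at -0.57, were the next lowest, and Ube2e2 at 0.28, Ext1 at 0.19 and Supt3 at 0.17 the highest. The mice differed: their list medians were -0.69, -0.14, 0.01 and -0.43, and those of the vehicle mice -0.08, 0.23 and -0.20. Leaving out the third mouse gave 1 call.

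The difference between the TS-2 effect at 72 h and at 8 h was past the test for 0 of the 31 (limma; 0 at an unadjusted p under 0.05; 0.0681% of all genes), with a median of -0.31. NTS-1 at 72 h gave 0 calls in the list, 0 at an unadjusted p under 0.05 and 0.00% over all genes in the limma fit, with a median of -0.20 and 25 of 31 changes negative. Its lowest values were Rad51b at -0.88, Tcf12 at -0.58, Foxp1 at -0.49, Atxn1 at -0.41 and Zbtb20 at -0.38, and its highest Fhit at 0.39, Tbc1d5 at 0.16 and Slc39a11 at 0.05. Groups were apart, with NTS-1 lower, for 2 genes (Tcf12 and Cdkal1), against 2.80% of all genes. TS-2 and NTS-1 share the vehicle mice of 72 h.

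After 2 weeks of TS-2, very long genes went both ways. Of the 40 used, 18 fell and 6 rose in the limma fit, where 15.5% of all genes were called lower and 24.3% higher. The list median was -0.19, against 0.00 over all genes, and 27 of 40 changes were negative. All TS-2 mice lay below all vehicle mice in 6 genes (3.93% of all genes) and above them in 2 (8.45%). The TS-2 mice had list medians of 0.07, -0.46, -0.01, -0.54 and -0.23, so that 2 of the 5 were near the vehicle mean, and vehicle mice ran from -0.33 to 0.20. Without any 1 mouse the count was 19 to 25, and it was 17 to 24 under the other settings tried.

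Enzymes and transporters had 5 of 7 lower and a median of -1.0. Fhit had a lowest, median and highest vehicle intensity of 327, 542 and 960 and read 217, 23.7, 75.9, 27.9 and 28.4 after TS-2. The groups did not overlap, and the fall was at least 9.85-fold (log2 change -3.46 ± 0.38 SE, limma adjusted p = 2.01e-06, n = 5 against 10). NTS-1 mice stood at 431 to 710. Dpyd had 3425, 5455 and 6358 in vehicle and 3223, 457, 1664, 102 and 294 after TS-2, 8.86-fold lower (log2 change -3.15 ± 0.51 SE, limma adjusted p = 7.67e-05). Its TS-2 mice spread widely, with an SD of 1.99 on the log2 scale, and a second probe set read -3.34. Slc39a11 had 541, 638 and 863 in vehicle and 522, 187, 405, 151 and 212 after TS-2, a log2 change of -1.29 ± 0.21. Wwox, an oxidoreductase, had 55.7, 79.1 and 119 in vehicle and 49.8, 40.3, 39.1, 29.2 and 45.3 after TS-2, at least 1.96-fold lower. Cdkal1 fell by 0.76 ± 0.15 on the log2 scale with overlapping groups, and Fto (0.17 ± 0.15) and Ext1 (0.03 ± 0.11) did not pass.

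Membrane traffic genes had 3 of 6 lower. Vps13b had 235, 329 and 450 in vehicle and 73.6, 30.9, 40.8, 17.2 and 35.2 after TS-2, at least 8.07-fold lower (log2 change -3.20 ± 0.23 SE, limma adjusted p = 1.37e-08). It was -1.09 when its probe sets were averaged. Vti1a had 129, 180 and 200 in vehicle and 61.9, 40.2, 51.5, 45.8 and 44.4 after TS-2, 3.44-fold lower (log2 change -1.78 ± 0.12 SE, limma adjusted p = 7.09e-09). A second Vti1a probe set read -0.60. TS-2 mice 1 and 3, the least changed for Fhit and Dpyd, were also the highest for Vps13b and Vti1a, yet still below every vehicle mouse. Tbc1d5 fell by 0.58 ± 0.19 on the log2 scale, with adjusted p values of 0.0954 and 0.0713 without TS-2 mice 4 and 5. Dym, Sbf2 and Exoc6b read -0.05, -0.04 and 0.15 and did not pass.

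Transcription factors and chromatin genes had 6 lower and 3 higher of 14. Atxn1 fell from a vehicle median of 385 (207 to 483) to 277, 98.3, 356, 73.5 and 144, with overlap (-1.20 ± 0.28), and its second probe set, at 101 in vehicle, read -0.27. Nfib fell by 0.97 ± 0.18 on the log2 scale, but its 6 other probe sets above 32 read -0.19 to 0.05, and its call ended when they were averaged (-0.21, limma adjusted p = 0.172). Bbx, an HMG-box protein, fell by 0.61 ± 0.20 with its other probe sets at 0.09 and 0.26. Supt3 fell by 0.59 ± 0.21, Smyd3, a methyltransferase, by 0.57 ± 0.12, and Arid1b, a subunit of the BAF remodelling complex, by 0.33 ± 0.10 on the log2 scale. Rere rose from a vehicle median of 185 (137 to 277) to 241, 383, 253, 396 and 397 (log2 change 0.82 ± 0.15). A second Rere probe set, dimmer in vehicle, read 0.00. Tcf4, an E protein, and Foxp1 rose by 0.51 ± 0.17 and 0.48 ± 0.16, and both lost their call when probe sets were averaged (0.21 and 0.12). Tcf4 read -0.06 on its probe set that was brightest in vehicle, and its call ended without TS-2 mouse 3 (adjusted p = 0.0755) or 5 (0.0946), as that of Foxp1 did without TS-2 mouse 4 (0.0816) or 5 (0.114). Bbx lost its call without TS-2 mouse 2 (0.0765) or 4 (0.0617), Arid1b without TS-2 mouse 2 (0.0682), and Supt3 without TS-2 mouse 2 (0.0871), 4 (0.137) or 5 (0.0982) or vehicle mouse 7 (0.0511) or 10 (0.0520).

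Junction genes had 3 lower and 1 higher of 6. Utrn fell by 1.09 ± 0.20, Pard3 by 0.87 ± 0.24 and Magi1 by 0.46 ± 0.13 on the log2 scale, each with overlapping groups. A second Utrn probe set, at 33.3 in vehicle, read -0.14. Magi3 had 205, 315 and 371 in vehicle and rose to 594, 536, 659 and 639 in 4 TS-2 mice, with mouse 1 at 328 inside the vehicle range (log2 change 0.83 ± 0.17). Of the 2 kinases used, Prkce fell by 0.59 ± 0.22, with adjusted p values of 0.0533 to 0.193 without any of 11 of the 15 mice and 0.0932 with probe sets averaged, and Prkca read -0.20 ± 0.14. In the remaining group 0 of 5 fell and 2 rose. Ube2e2 had 289, 339 and 372 in vehicle and 536, 460, 436, 499 and 386 after TS-2, without overlap (log2 change 0.47 ± 0.08). Zfand3 had 831, 1007 and 1214 in vehicle and 1534, 1782, 1350, 1812 and 1328 after TS-2, also without overlap (log2 change 0.61 ± 0.10). Of the 27 genes with at least 2 probe sets above 32, 10 had probe sets of opposite sign, the widest gap being 1.18.

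Endothelial markers were lower in the same livers: 5 of 7 fell, with a median of -0.90, and their summed intensity was 1055 to 2604 after TS-2, 1770 to 2597 after NTS-1 and 2498 to 4218 in vehicle. Of 8 hepatocyte markers 1 fell and 1 rose, with a median of -0.06. Their part in the changes of the very long genes was not tested.

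**Figure D3:**
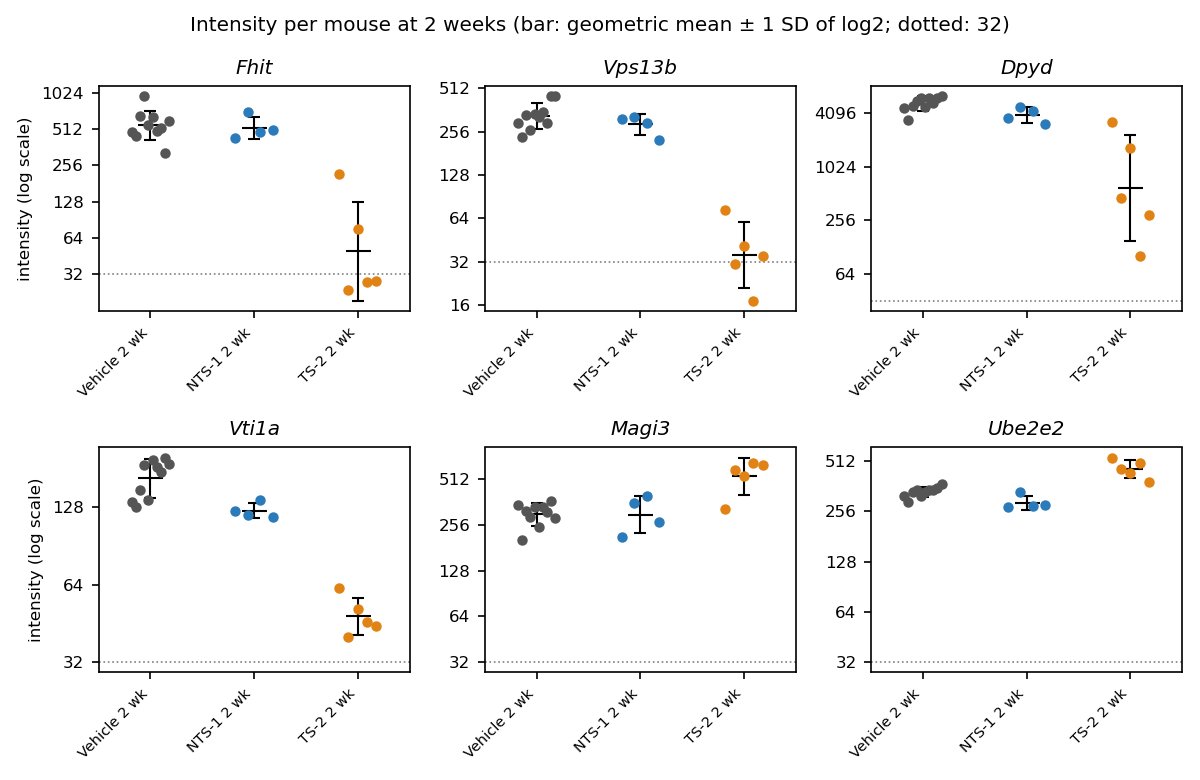
Intensity in each mouse (points, log scale) for 6 very long genes in vehicle, NTS-1 and TS-2 groups at 2 weeks, with the geometric mean ± 1 SD of log2 as bars and 32 as a dotted line. Fhit, Vps13b, Dpyd and Vti1a are lower in all 5 TS-2 mice than in all 10 vehicle mice, and Ube2e2 is higher in all 5, at 386 to 536 against 289 to 372.

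NTS-1 at 2 weeks left no gene of the list past the limma test (0 of 40; 8 at an unadjusted p under 0.05; 5.34% of all genes called). The median was 0.06. Rad51b at -0.78, Bbx at -0.65 (limma adjusted p = 0.0834), Dpyd at -0.43, Vti1a at -0.42 (0.0676) and Nfib at -0.25 were lowest, and Zbtb20, Foxp1 and Tbc1d5, each at 0.49, highest. Vti1a read 117 to 137 after NTS-1, 129 to 187 in vehicle mice 1 to 5 and 176 to 200 in vehicle mice 6 to 10. TS-2 against NTS-1 at 2 weeks lowered 14 and raised 3 of the 40, where 7.25% and 15.0% of all genes were called. Fhit differed by -3.39 ± 0.46, Vps13b by -3.01 ± 0.28, Dpyd by -2.71 ± 0.62 and Vti1a by -1.37 ± 0.15. Cux1 was added at -0.40 ± 0.14 (limma adjusted p = 0.0488), and Magi3 (0.83), Ube2e2 (0.68) and Rere (0.63) were higher. Leaving out single mice gave 13 to 21 calls, and the calls of Cux1, Nfib, Pard3 and Rere each ended without any of at least 5 of the 9 mice. The fit of these 9 arrays alone called 8. With probe sets averaged 11 of 33 genes were called, and Atxn1, Nfib and Rere lost their call.

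The toxic gapmers HTS-3 and TS-2 could be set side by side through separate vehicle mice, at different times, numbers of doses and array sets. Of the 31 genes used in both sets, 21 fell after HTS-3 at 16 h and 14 after TS-2 at 2 weeks, and 11 fell in both, which is 52.4% of the first and 78.6% of the second. Those shares stand beside 45.2% of the 31 that fell after TS-2 and 67.7% that fell after HTS-3. Over all 8684 genes used in both sets, 7.67% fell after HTS-3 and 19.3% after TS-2. Of the first 31.4% were among the second, and of the second 12.4% were among the first. The 11 genes of the list lower in both were Pard3, Tbc1d5, Vps13b, Cdkal1, Nfib, Supt3, Slc39a11, Utrn, Atxn1, Prkce and Vti1a. A further 3, Magi3, Zfand3 and Ube2e2, fell after HTS-3 and rose after TS-2. Past the test after HTS-3 only were 7 genes, Gphn, Fto, Tcf12, Cux1, Nfia, Diaph2 and Sbf2, and Fhit, Dpyd and Arid1b passed as lower after TS-2 only. The difference between these comparisons was not tested gene by gene. Diaph2 read -4.36 after HTS-3 and 0.27 after TS-2, and Dpyd read -0.14 and -3.15.

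**Figure D4:**
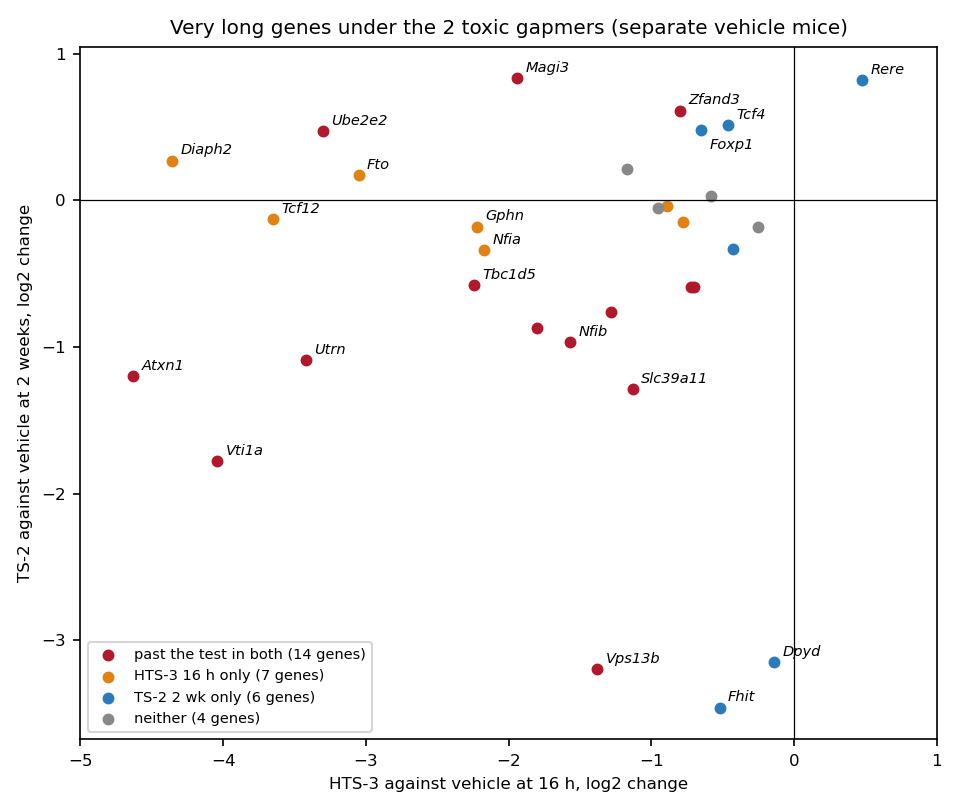
Each point is 1 of the 31 very long genes used in both sets, with the log2 change after HTS-3 at 16 h on the horizontal axis and after TS-2 at 2 weeks on the vertical axis, coloured by which test it passed. Vti1a and Atxn1 are low on both, Fhit and Dpyd on the vertical axis alone, and Magi3, Zfand3 and Ube2e2 are negative on the horizontal and positive on the vertical axis.

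Other genes of similar span were also called lower after HTS-3 at 16 h and TS-2 at 2 weeks, in smaller shares than the list. After HTS-3 at 16 h, the share of genes called lower was 2.35% under 20 kb, 4.50% from 20 to 50 kb, 12.3% from 50 to 100 kb, 24.9% from 100 to 200 kb and 50.4% at 200 kb or more. The 251 genes of 200 kb or more outside the list had 48.2% lower and a median of -0.93, beside 67.7% and -1.17 in the list. Their share called higher was 0.398%, against 7.24% of genes under 20 kb. At 8 h the medians went from 0.04 under 20 kb to -0.42 at 200 kb or more, and 4.61% of the longest genes were lower. After TS-2 at 72 h they went from 0.07 to -0.17, with 1.42% of the longest lower. After TS-2 at 2 weeks the shares lower were 15.6%, 13.4%, 14.1%, 18.5% and 27.7% in the same order, and 10.1% of the longest genes rose, against 21.7% to 29.5% in the 4 shorter groups. After NTS-1 at 2 weeks 0.883% of the longest genes were lower and 0.883% higher. After a single dose of NTS-1 the share of changes below 0 went from 51.0% under 20 kb to 64.5% at 200 kb or more at 16 h, and from 47.4% to 64.5% at 72 h. The medians of the longest genes were -0.08 and -0.07.

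Within the list, which holds only spans of 200 kb or more, the relation of span to change varied with the comparison. Spearman's rho was 0.09 over the 31 genes for HTS-3 at 16 h and -0.31 over the 40 for TS-2 at 2 weeks, and over all genes with a known span -0.18 and 0.04. For NTS-1 at 72 h it was -0.18 over all genes and -0.04 over the list. For TS-2 at 72 h it was -0.27 over both. For HTS-3 at 8 h it was -0.22 over all genes and 0.01 over the list. For TS-2 against NTS-1 at 2 weeks it was 0.05 over all genes and -0.41 over the list. These are descriptions across genes, which share the same mice and are not independent. Within the list, the vehicle level gave 0.00 for HTS-3 at 16 h and -0.09 for TS-2 at 2 weeks.

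**Figure D5:**
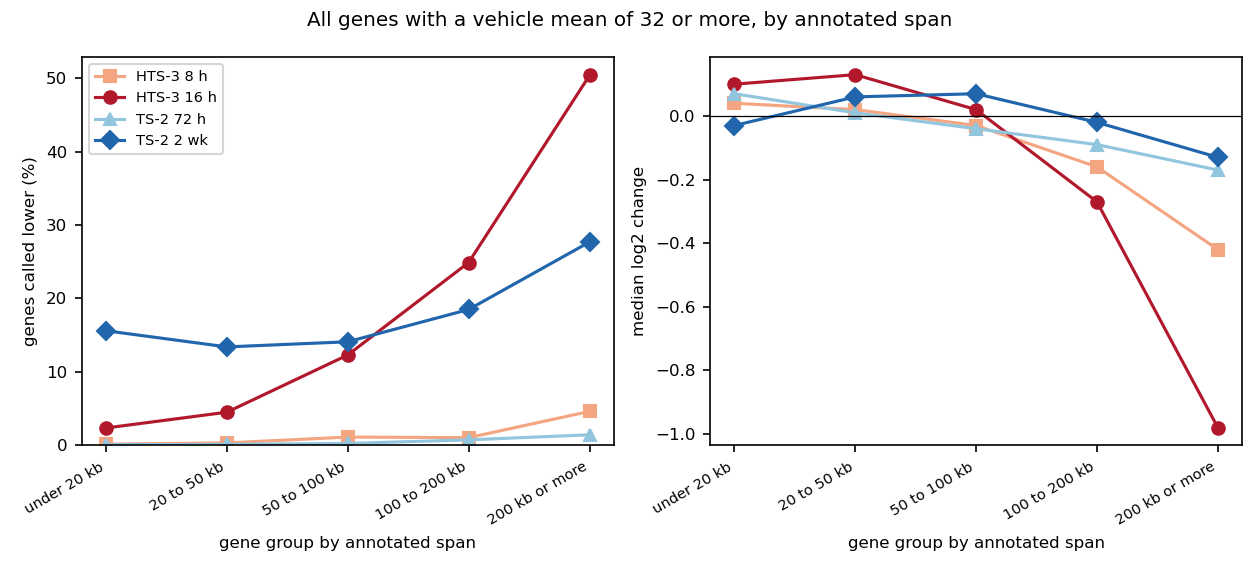
Share of genes called lower (left, percent) and median log2 change (right) in 5 groups of annotated span, over all genes with a vehicle mean of 32 or more, for HTS-3 at 8 and 16 h and TS-2 at 72 h and 2 weeks. At 200 kb or more the HTS-3 16 h line reaches 50.4% and the TS-2 2-week line 27.7%.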

How the data were processed

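Liver RNA was isolated with RNeasy columns, labelled with a single-round amplification kit and hybridised to Affymetrix mouse arrays, per the labels' protocols. The authors deposited intensity values on a linear scale for 45101 probe sets, made with RMA per the submitters' processing notes, with unstated settings, and the values were converted to log2. Only probe sets annotated to 1 gene were used (34958, with 932 for several genes and 9211 for none). The probe set with the highest mean over all arrays stood for a gene, and symbols and spans came from RefSeq (GRCm38.p6). RMA normalizes between arrays, so a shift of all genes on an array is not seen. The number of arrays limits the precision.

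The 37 single-dose and 19 2-week arrays were fitted apart with limma 3.58.1 in R 4.3.3, 1 mean per group, with Benjamini-Hochberg adjustment over all 18195 and 14454 genes tested and a threshold of 0.05. A gene was tested if it lay at or above an array's 40th percentile on 3 arrays, which left out no gene of the single-dose set. Folds against groups with values under 32 were computed with those values set to 32 and are given as lower limits. Values are means ± SE of the fit unless stated. On simulated data the fit recovered 59% of 2-fold falls for HTS-3 at 16 h and 55% for TS-2 at 72 h. For TS-2 at 2 weeks it recovered 95%, and of 4-fold falls it recovered 93% to 100%. A 2-fold fall could therefore be missed more often after a single dose than at 2 weeks. Named were all used members past a test, and the 5 lowest and 3 highest per vehicle comparison. The members and lists were chosen with earlier results of these data known.

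Replicate numbers were checked as pairs by correlating deviations from group means. For vehicle and TS-2 at 8 h all pairs correlated over 0.1 (to 0.45), by the data and not the labels, and a fit with the number as a block also called 0 members. In the other 17 comparisons between groups not all pairs did, with single pairs up to 0.47, and the numbers were not taken as pairs. With so few pairs in each comparison, this check cannot exclude a pairing. No identical arrays were found in 666 and 171 pairs. Alternatives were the probe set rule, the filter, quantile normalization, array weights, the groups in the fit, the replicate block, subsets of vehicle mice, the time of 1 mouse, and leaving out each mouse.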

Additional observations from a re-analysis of the deposited data

Results flagged for a closer look

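For 6 genes the HTS-3 effect differed between 8 and 16 h by the interaction test, with differences on the log2 scale of -3.63 for Diaph2, -3.16 for Vti1a, -2.83 for Ube2e2, -2.61 for Fto, -2.38 for Utrn and -1.91 for Tcf12. Without vehicle mouse 2 of 8 h 3 of these 6 calls were lost, and when the mouse with conflicting times in its labels was counted at 16 h none of the list passed.

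Single mice stood apart from their group in 8 of 76 groups of values looked at. Many of these groups are genes read on the same mice and are not independent, so no chance share is given. The highest HTS-3 mouse at 16 h for Tcf12 read 78.5, with the next at 22.1. At 2 weeks vehicle mouse 2 was lowest of 10 for Dpyd (3425, next 4713), Nfib (411, next 544), Prkce (130, next 169) and Utrn (132, next 183). The same mouse had the lowest list median, -0.33, with the next at -0.06. Vehicle mouse 7 was highest for Slc39a11 (863, next 694). The list medians of the TS-2 mice at 8 h had a highest of 0.14, with the next at -0.02.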

How the results depend on the processing

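The lower counts after HTS-3 at 16 h kept their direction in each fit that called any gene, and the 21 genes against vehicle were 18 to 22 without 1 mouse and 20 with the mouse of conflicting time moved to 16 h. With the probe sets of a gene averaged, 19 of the 31 single-dose and 33 of the 40 2-week genes stayed above 32. HTS-3 then called 13 against vehicle, 12 against NTS-1 and 12 against TS-2 at 16 h, 0 against vehicle, NTS-1 and TS-2 at 8 h, 3 in the interaction and TS-2 against NTS-1 at 2 weeks called 11. Among single-dose genes called before and still above 32, all kept their call in these comparisons, so the lower counts come from genes that left. At 2 weeks Foxp1, Nfib, Prkce and Tcf4 lost the call against vehicle, and Atxn1, Nfib and Rere against NTS-1. With the compared groups fitted alone, HTS-3 called 2, 7 and 2 at 16 h and 0, 0 and 1 at 8 h in the same order, TS-2 against NTS-1 called 8 at 2 weeks, and NTS-1 against vehicle at 2 weeks 1. With the replicate number as a block on the compared groups alone, HTS-3 called 0 against vehicle, NTS-1 and TS-2 at 8 and 16 h, and TS-2 against NTS-1 at 2 weeks 3. Outside vehicle and TS-2 at 8 h the numbers were not taken as pairs, though the check of deviations cannot exclude a pairing. The block left few degrees of freedom. With the mouse of conflicting time moved, HTS-3 called 0 at 8 h against vehicle, NTS-1 and TS-2, and the interaction 0. Quantile normalization called 1 and 1 for HTS-3 against NTS-1 and TS-2 at 8 h, and 3 for NTS-1 at 2 weeks. Array weights called 1 for TS-2 against vehicle at 8 h and at 72 h and against NTS-1 at 8 h and at 72 h, 4 and 5 for HTS-3 against NTS-1 and TS-2 at 8 h, 11 in the interaction and 6 for NTS-1 at 2 weeks. With vehicle mice 6 to 10 alone, NTS-1 at 2 weeks called 1. Without 1 mouse the counts were 1 to 4 for HTS-3 at 8 h, 1 to 3 against NTS-1 and 1 to 4 against TS-2 at 8 h, 3 to 9 for the interaction, 0 to 1 for TS-2 at 72 h and 0 to 2 for NTS-1 at 2 weeks. The sign turned for Tcf4 after TS-2 at 2 weeks (-0.06 on the probe set brightest in vehicle) and for Rad51b after HTS-3 at 16 h (0.80 with the block), and for 31 values that had not passed and lay within 1 SE of 0. Taking the limit of 32 from the mean of log2 values left the same 31 and 40 genes. Of 1093 refits without 1 mouse of a gene past the test, 961 kept the call, and 132 lost it with the same sign. Values under 32 carry little order, so the size of the largest falls is known only as a lower limit.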
